A study of Mus musculus with 7 samples.

Results

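The annexins described here are 10 genes of the family (Anxa1, Anxa2, Anxa3, Anxa4, Anxa5, Anxa6, Anxa7, Anxa8, Anxa9 and Anxa11). The members were chosen by name and matched by Ensembl identifier, and make up 10 of the 55423 features of the count table. RNA was sequenced, after depletion of ribosomal RNA, from endpoint cutaneous squamous cell carcinomas of C57BL/6J mice. In all of these mice topical tamoxifen, given at 7 to 10 weeks of age, activated BRAFV600E through a CreERT2 driven by the involucrin promoter, which marks keratinocytes committed to differentiation. One group, Ivl:BRAFV600E, carried no SOX2 transgene, and per the study some of its mice carried the Rosa26 LSL-tdRFP reporter (3 tumours, here BRAF 1 to 3). The other, Ivl:BRAFV600E-SOX2LSL, also carried the Rosa26 LSL-SOX2-IRES-eGFP allele, so that recombined cells expressed SOX2 and eGFP (3 tumours, here SOX2 1 to 3). Per the study, the SOX2LSL tumours were collected earlier after induction, so time since induction and genotype cannot be told apart.

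Annexins are cytosolic proteins that bind membrane phospholipids when calcium rises. They share a conserved core of repeats, which bind calcium in most members, and have a variable N terminus that binds partners, many of them S100 or other EF-hand proteins. In skin, annexins are known for membrane repair, for assembly of the cornified envelope and, in the case of annexin A1, for control of inflammation.

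In GRCm38, with GENCODE M21 as annotation, 3 of the members lie on chromosome 14 (Anxa7, Anxa8 and Anxa11), 2 on chromosome 3 (Anxa5 and Anxa9), and the others on a chromosome each. Of the members described in full, Anxa1 spans chr19:20373428-20390944 (minus strand), Anxa2 chr9:69453620-69491795 (plus), Anxa6 chr11:54979108-55033445 (minus) and Anxa9 chr3:95296096-95307176 (minus). Promoter windows, from 250 bases before to 50 after the start, were found in RefSeq (GRCm38.p6) for 8 of the 10 members, giving 11 windows. Anxa3 and Anxa6 are not in the RefSeq table used here. The windows of Anxa2 and Anxa9, which changed in opposite directions, and of Anxa1, the most abundant member per length, are shown here 5′ to 3′ on the strand of the gene. Anxa9 has 2 windows, and the one shown is that at the annotated start of the gene in GENCODE, while the other, at chr3:95315131-95315430, lies upstream of the annotated gene and holds none of the letters searched. Capitals mark TATAAA in both Anxa1 and Anxa2 and, upstream of it in Anxa2, TGAGTCA. They lie at chr9:69453433-69453732 (plus strand), chr3:95307143-95307442 (minus strand) and chr19:20390622-20390921 (minus strand).
Anxa2: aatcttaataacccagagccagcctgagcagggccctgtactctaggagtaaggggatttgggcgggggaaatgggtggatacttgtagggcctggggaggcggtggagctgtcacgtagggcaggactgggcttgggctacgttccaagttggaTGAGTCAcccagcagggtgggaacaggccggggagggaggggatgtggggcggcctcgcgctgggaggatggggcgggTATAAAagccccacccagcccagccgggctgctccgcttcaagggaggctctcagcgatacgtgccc
Anxa9: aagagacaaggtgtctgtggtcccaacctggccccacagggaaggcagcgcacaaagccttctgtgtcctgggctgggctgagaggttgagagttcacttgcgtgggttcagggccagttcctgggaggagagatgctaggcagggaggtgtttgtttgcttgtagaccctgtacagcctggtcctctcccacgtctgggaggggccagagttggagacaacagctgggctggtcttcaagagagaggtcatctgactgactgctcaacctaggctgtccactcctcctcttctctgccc
Anxa1: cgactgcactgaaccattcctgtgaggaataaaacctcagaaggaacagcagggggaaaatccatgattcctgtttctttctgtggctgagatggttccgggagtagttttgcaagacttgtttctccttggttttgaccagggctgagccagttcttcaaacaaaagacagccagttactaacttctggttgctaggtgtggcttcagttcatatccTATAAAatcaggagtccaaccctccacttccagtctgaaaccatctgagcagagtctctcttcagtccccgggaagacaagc
SOX-type letters were searched on both strands. CATTGTT occurs in 3.78% and CTTTGTT in 5.85% of the 32851 windows of the table, and neither is in the 11 annexin windows, which says only that these letters are not in these windows. TGANTCA, the letters bound by AP-1, a transcription factor downstream of MAPK signalling, was added to the search after the levels were known and is in 7.81% of all windows and in 1 of the 11, that of Anxa2. TATAAA is in 13.6% of all windows and in those of Anxa1 and Anxa2. These matches are descriptions of sequence and were not tested as binding sites.

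Libraries held between 23565432 and 31152826 counts on genes. Sox2, the induced gene, was at 0.238 to 0.716 CPM (counts per 1 M counts, after TMM scaling) in the Ivl:BRAFV600E tumours and at 155 to 182 CPM in the Ivl:BRAFV600E-SOX2LSL tumours, and EGFP had no reads in the first group and 110 to 139 CPM in the second. The defining keratinocyte markers Krt5, Krt14 and Trp63 were present in every tumour. SOX2 1 stood apart, with summed adipocyte markers at 21.7 CPM against at most 0.570 CPM in the other 5 tumours. The 6 summed markers of differentiating keratinocytes (Krt1, Krt10, Ivl, Lor, Flg and Dsg1a) ranged from 77830 to 92570 CPM in Ivl:BRAFV600E tumours and from 2516 to 25850 CPM in Ivl:BRAFV600E-SOX2LSL tumours. Skeletal muscle markers (7 of 8 tested) summed to at most 11.4 CPM in the first group and to 695 to 2868 CPM in the second. In bulk tumours, fewer cells of a type and less RNA per cell cannot be told apart.

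To ask how SOX2 overexpression changed the annexins of BRAFV600E tumours, both groups were compared with edgeR's quasi-likelihood test, with Benjamini-Hochberg adjustment over all 24433 genes tested and a threshold of 0.05. All 10 members passed the filter on low counts. Anxa2 and Anxa6 rose and Anxa9 fell, and the other 7 did not pass the test. These 3 called members stand beside a background of 3.90% of all genes tested (2.39% higher and 1.51% lower in Ivl:BRAFV600E-SOX2LSL). The 3 tumours of one group did not overlap with the 3 of the other for 6 members, 5 of them higher and 1 lower, against 34.2% of all genes tested without overlap, 18.2% without overlap and higher, and 16.0% without overlap and lower. The median log2 fold change was 0.60 over the members and 0.04 over all genes tested.

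**Figure D1:**
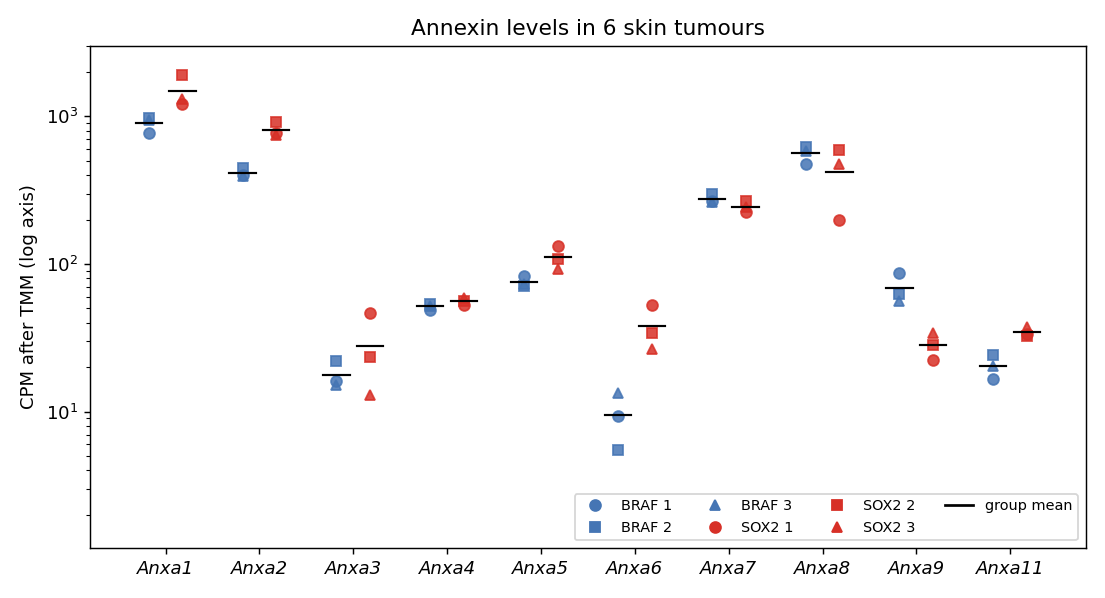
Level of each annexin in CPM after TMM on a log axis, 1 point per tumour (blue, Ivl:BRAFV600E, red, Ivl:BRAFV600E-SOX2LSL) with group means as black bars. Anxa1, Anxa2, Anxa5, Anxa6 and Anxa11 were higher in every Ivl:BRAFV600E-SOX2LSL tumour than in every Ivl:BRAFV600E tumour, and Anxa9 was lower.

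Anxa2, which forms a heterotetramer with S100A10 at the plasma membrane, was at 404, 446 and 395 CPM in BRAF 1, 2 and 3 and at 774, 909 and 747 CPM in SOX2 1, 2 and 3. The groups lay well apart, and the spread within each was small. Its mean of 415 ± 27.3 CPM rose 1.95-fold to 810 ± 86.9 CPM (SD, n = 3 per group), or by 0.97 ± 0.15 on the log2 scale (SE; edgeR adjusted p = 0.0266). Its fold was 1.76 among the females (2 against 1) and 2.13 among the males (1 against 2). With sex as a covariate the log2 fold change was 0.95 with an edgeR adjusted p of 0.0730. Without BRAF 1, BRAF 2, BRAF 3 or SOX2 2 in turn the adjusted p of edgeR rose to between 0.0666 and 0.130, while the log2 fold change stayed between 0.87 and 1.02. In Anxa2, 98 exonic bases overlap an antisense gene, and whether strand was used in counting is not stated.

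S100a10 and Plau, listed as partners of annexin A2 and of the plasminogen system, rose as well. S100a10, whose product joins it in the heterotetramer, was at 50.7, 51.6 and 36.7 CPM in the Ivl:BRAFV600E tumours and at 159, 128 and 120 CPM in the Ivl:BRAFV600E-SOX2LSL tumours. It rose 2.93-fold (log2 fold change 1.55 ± 0.18, SE; edgeR adjusted p = 0.0143), and no tumour of one group reached the range of the other. The call was lost without BRAF 1 (edgeR adjusted p = 0.0914) or BRAF 2 (0.0596). The ratio of S100a10 to Anxa2 CPM within a tumour, which does not depend on library scaling, was 0.126, 0.116 and 0.0929 in BRAF 1 to 3 and 0.206, 0.141 and 0.160 in SOX2 1 to 3. These ratios did not overlap between groups (exact two-sided permutation p = 0.1, the smallest that 3 against 3 allows).
The heterotetramer is known to bind plasminogen and its activators at the cell surface. Plau, the urokinase-type activator, was at 40.7, 38.3 and 50.6 CPM and at 98.4, 87.0 and 86.1 CPM, and rose 2.09-fold (log2 fold change 1.07 ± 0.15, SE; edgeR adjusted p = 0.0206). Its call was lost without BRAF 1 (edgeR adjusted p = 0.121), BRAF 2 (0.0861) or SOX2 2 (0.0568). Plat, the tissue-type activator, was at 6.70 to 9.17 CPM and at 12.5 to 29.0 CPM without overlap but did not pass the test (edgeR adjusted p = 0.0670), though it did with DESeq2 (0.00386) and in edgeR with no filter (0.0350). Plaur, the urokinase receptor, overlapped between groups (adjusted p = 0.164 with edgeR and 0.0437 with DESeq2), with its highest level, 42.9 CPM, in SOX2 1. Plg had no reads in any tumour.

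Anxa6, the annexin with a duplicated core, is known for links between membranes, cholesterol-rich endosomes and the cytoskeleton and is found in muscle and immune cells. It was at 9.38, 5.50 and 13.4 CPM in BRAF 1 to 3 and at 52.7, 34.2 and 26.4 CPM in SOX2 1 to 3. The lowest SOX2LSL tumour was above the highest Ivl:BRAFV600E tumour. Its mean of 9.43 ± 3.95 CPM rose 4.01-fold to 37.8 ± 13.5 CPM (SD, n = 3 per group), the largest log2 fold change of the members at 2.00 ± 0.38 (SE; edgeR adjusted p = 0.0391). Its ratio to each of the 9 other members within a tumour was higher without overlap. These ratios reuse the same levels and were added after the levels were seen, so they are not separate support. The fold of Anxa6 was 3.55 among females and 3.24 among males. With sex as a covariate its log2 fold change was 1.76 with an edgeR adjusted p of 0.0570. Without SOX2 1 it was 1.68 (adjusted p = 0.0343, edgeR), and with any other tumour left out it lay between 1.73 and 2.34 with an adjusted p between 0.0552 and 0.166.
Marker lists of other cells are given beside it. The 5 macrophage markers (Adgre1, Csf1r, Cd68, C1qa and Mrc1) summed to 47.9, 44.7 and 84.5 CPM in BRAF 1 to 3 and to 349, 148 and 119 CPM in SOX2 1 to 3, all 5 were higher without overlap, and their sum had the same order of tumours as Anxa6 in both groups. Csf1r alone passed the test (log2 fold change 1.98, edgeR adjusted p = 0.0483). The 6 fibroblast markers summed to 2074, 726 and 5028 CPM and to 8177, 3891 and 4702 CPM, with overlap and none of the 6 called by edgeR, and 6 of the 7 tested muscle markers rose. The 5 endothelial markers summed to 123 to 130 CPM and to 118 to 145 CPM, and the 5 T cell markers to 1.76 to 6.13 CPM and to 4.08 to 8.27 CPM, both with overlap and with no marker called by edgeR. The fibroblast and T cell sums also had the order of Anxa6 among the Ivl:BRAFV600E tumours, but not among the SOX2LSL tumours. The muscle sum had it in neither group, at 1.84, 1.89 and 11.4 CPM and at 2724, 2868 and 695 CPM. Orders of 3 tumours were not tested, nor was the part of any of these cell types in the level of Anxa6.

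Anxa9, an annexin that has lost the residues for calcium binding in its core and is known in stratified epithelia, was at 86.8, 62.7 and 55.9 CPM in BRAF 1 to 3 and at 22.4, 28.1 and 33.9 CPM in SOX2 1 to 3. Every SOX2LSL tumour was below every Ivl:BRAFV600E tumour. Its mean of 68.4 ± 16.2 CPM fell to 28.1 ± 5.76 CPM (SD, n = 3 per group), a fold of 0.411 and a log2 fold change of -1.28 ± 0.22 (SE; edgeR adjusted p = 0.0315). It was the only member called lower. Its ratio was lower without overlap against 8 of the 9 other members, a count that reuses the same levels. The fold of Anxa9 was 0.453 among females and 0.452 among males. With sex as a covariate the log2 fold change was -1.14 with an edgeR adjusted p of 0.0595. Without SOX2 1 it was -1.14 (edgeR adjusted p = 0.0248), and with any other tumour left out the adjusted p was between 0.0518 and 0.126.
The markers of differentiating keratinocytes are given beside it. Lor, the envelope protein loricrin, was at 2019, 1460 and 1112 CPM in BRAF 1 to 3 and at 79.2, 265 and 472 CPM in SOX2 1 to 3 (edgeR adjusted p = 0.0648). Flg, which encodes profilaggrin, was at 12700, 6145 and 4887 CPM and at 743, 1839 and 4521 CPM (edgeR adjusted p = 0.163). Both had the same order of tumours as Anxa9 in each group, but the list as a whole did not: the sum of the 6 markers was 77830, 92570 and 84880 CPM in BRAF 1 to 3 and 2516, 18750 and 25850 CPM in SOX2 1 to 3. Like the sum, Krt1, Krt10 and Dsg1a were lowest in BRAF 1 among the Ivl:BRAFV600E tumours, where Anxa9 was highest. Of the 6 differentiating keratinocyte markers, 5 were lower without overlap and 1, Dsg1a, passed the test (log2 fold change -2.39, edgeR adjusted p = 0.0491). The sixth, Ivl, which encodes the envelope protein involucrin, overlapped between groups at 208, 40.4 and 76.4 CPM and at 72.6, 22.0 and 114 CPM (edgeR adjusted p = 0.611). The part of differentiated keratinocytes in the level of Anxa9 was not tested. Its exons overlap 2 other genes by 94 and 71 bases.

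**Figure D2:**
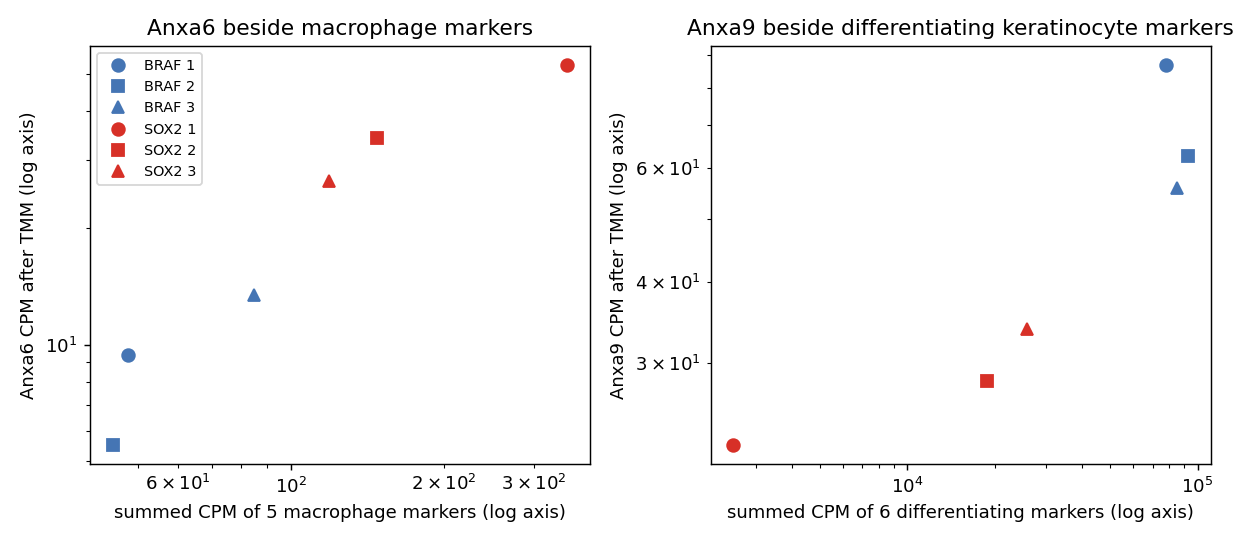
Left, Anxa6 against the summed CPM of 5 macrophage markers. Right, Anxa9 against the summed CPM of 6 differentiating keratinocyte markers, all in CPM after TMM on log axes with 1 point per tumour. SOX2 1 had the highest Anxa6 (52.7 CPM) and macrophage sum (349 CPM) and the lowest Anxa9 (22.4 CPM) and differentiating sum (2516 CPM), whereas BRAF 1 had the highest Anxa9 (86.8 CPM) with the lowest differentiating sum of its group (77830 CPM).

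Anxa1, a glucocorticoid-induced inhibitor of phospholipase A2 and ligand of formyl peptide receptors, was the most abundant annexin per length in both groups. It was at 769, 972 and 948 CPM in BRAF 1 to 3 and at 1220, 1906 and 1314 CPM in SOX2 1 to 3. The groups did not overlap, but SOX2 2 was far above the other tumours. The fold of 1.65 (log2 fold change 0.72 ± 0.22, SE) did not pass the test (edgeR adjusted p = 0.104), whereas DESeq2's Wald test gave an adjusted p of 0.0220. Without SOX2 2 the log2 fold change was 0.50.
Of the 3 listed receptors of annexin A1, Fpr3 had 1 count in SOX2 3 and 0 elsewhere, and was not tested. Fpr1 and Fpr2 were at or near the floor of 3 counts in the Ivl:BRAFV600E tumours and above it in every SOX2LSL tumour. Fpr1 had 2, 3 and 1 counts in BRAF 1 to 3 and 35, 11 and 38 counts in SOX2 1 to 3 (edgeR adjusted p = 0.0503). Fpr2 had 1, 6 and 5 counts and 80, 40 and 27 counts (edgeR adjusted p = 0.0561). Both receptors were higher without overlap, and neither passed the test. Both passed with DESeq2 (adjusted p = 0.00355 for Fpr1 and 9.28e-04 for Fpr2) and in edgeR with no filter on low counts (0.0274 and 0.0283) or with filterByExpr (0.0425 and 0.0476), and neither did with sex as a covariate (0.0751 and 0.132). They are known from neutrophils and macrophages, and 5 neutrophil markers summed to 15.0 to 22.9 CPM in the first group and to 38.3 to 58.9 CPM in the second. No neutrophil marker was called by edgeR, Retnlg overlapped between groups, and Csf3r and Cxcr2 made up most of the sum. The part of neutrophils and macrophages in the receptor reads was not tested. Pla2g4a, the cytosolic phospholipase A2, was at 12.3 to 17.0 CPM and at 11.7 to 18.8 CPM, with overlap.

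The other 2 members without overlap did not pass the test. Anxa5, which binds phosphatidylserine exposed on dying cells, was at 82.6, 70.6 and 73.1 CPM and at 132, 109 and 92.6 CPM (log2 fold change 0.56 ± 0.16, SE; edgeR adjusted p = 0.0927). Anxa11, which tethers RNA granules to lysosomes, was at 16.6, 24.3 and 20.2 CPM and at 33.5, 32.4 and 37.5 CPM (log2 fold change 0.76 ± 0.17, SE; edgeR adjusted p = 0.0565). All SOX2LSL values of Anxa11 lay close together. DESeq2 called both, with adjusted p values of 0.0388 for Anxa5 and 0.00443 for Anxa11, and Anxa11 also passed in edgeR with no filter on low counts (0.0399) and with filterByExpr (0.0476). Anxa11 shares 113 exonic bases with its antisense gene Anxa11os.

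For the remaining 4 members the groups overlapped. Anxa8, the second annexin per length, was at 478, 620 and 586 CPM in BRAF 1 to 3 and at 197, 591 and 479 CPM in SOX2 1 to 3. The low value belonged to SOX2 1 alone: the log2 fold change was -0.41 ± 0.37 (SE; edgeR adjusted p = 0.519) with this tumour and -0.07 ± 0.16 without it, and -0.73 ± 0.38 (edgeR adjusted p = 0.300) without SOX2 2. Anxa3, known from neutrophils and epithelial tumours, was at 16.1, 21.9 and 15.2 CPM and at 47.0, 23.3 and 13.0 CPM. Here too the difference rested on SOX2 1, with a log2 fold change of 0.65 ± 0.43 (SE; edgeR adjusted p = 0.381) with it and 0.03 ± 0.28 without it. Its direction also turned between the sexes, with a fold of 0.684 among females and 2.32 among males, whereas each of the 9 other members lay on the same side of 1 in both. Anxa3 shares 112 exonic bases with another gene on its strand. Anxa4, an annexin of secretory epithelia, was the steadiest member at 49.2 to 54.0 CPM and 52.7 to 58.8 CPM, a log2 fold change of 0.11 ± 0.11 (SE; edgeR adjusted p = 0.566). Anxa7, which promotes membrane fusion and binds sorcin, was at 261 to 298 CPM and at 224 to 267 CPM, a log2 fold change of -0.17 ± 0.13 (SE; edgeR adjusted p = 0.450).

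**Figure D3:**
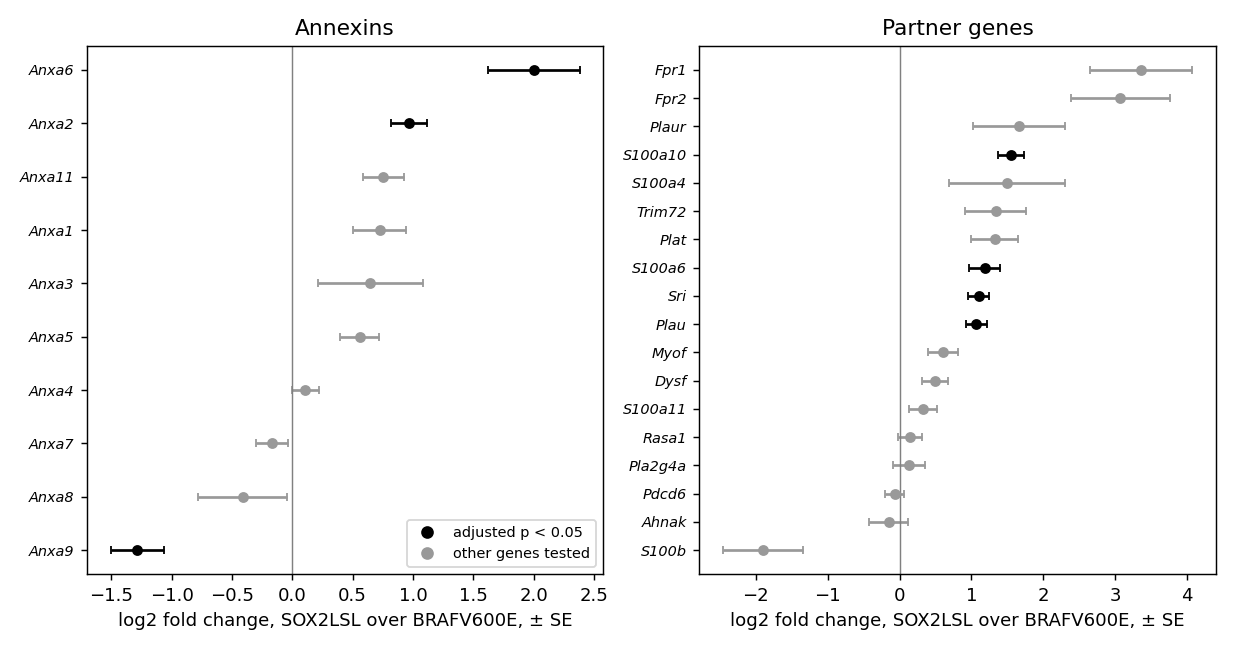
Log2 fold change of Ivl:BRAFV600E-SOX2LSL over Ivl:BRAFV600E with its standard error for the 10 annexins (left) and the 18 tested partner genes (right), in black where the edgeR adjusted p is below 0.05. Anxa6 (2.00) and Anxa2 (0.97) lie above 0 and Anxa9 (-1.28) below it, and the 4 partner genes in black, S100a10, S100a6, Sri and Plau, all lie above 0. The fitted values of Fpr1, Fpr2, S100a4 and S100b rest on few counts.

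A list of 20 genes known to work with annexins was written with earlier results of these data known. Its counts beside all genes tested are therefore a description and not independent support. Of the 20 genes, 18 were tested. Of these, 4 rose and 0 fell by edgeR, beside 2.39% and 1.51% of all genes tested, and 12 had an unadjusted p below 0.05, beside 25.7%. DESeq2 called 9 higher and 1 lower, beside 10.5% and 7.76% of the 20046 genes to which it gave an adjusted p (18.2% in either direction). Without overlap, 10 were higher and 1 lower, beside 18.2% and 16.0% of all genes tested. Their median log2 fold change was 1.08, beside 0.04 over all genes tested. Of the 7 S100 and penta-EF-hand partners, 3 rose. S100a10 is described above. S100a6, a ligand of annexins including annexin A11, was at 144, 193 and 113 CPM in BRAF 1 to 3 and at 382, 336 and 303 CPM in SOX2 1 to 3. All of its SOX2LSL values were above the others (log2 fold change 1.18 ± 0.22, SE; edgeR adjusted p = 0.0361). The call was lost with sex as a covariate (edgeR adjusted p = 0.0838) and with any 1 tumour but SOX2 1 left out (0.0608 to 0.162). Sri, which encodes sorcin, was at 22.4, 20.9 and 27.0 CPM and at 55.5, 49.2 and 46.0 CPM (log2 fold change 1.10 ± 0.15, SE; edgeR adjusted p = 0.0202), a call lost without the same 3 tumours as that of Plau (0.0574 to 0.119). S100a11, the partner of annexin A1, overlapped between groups at 193 to 248 CPM and 230 to 346 CPM (edgeR adjusted p = 0.339), as did Pdcd6, the ALG-2 protein that binds annexins A7 and A11, at 42.2 to 55.0 CPM and 43.5 to 48.6 CPM. S100b had 28, 8 and 16 counts and 4, 6 and 7 counts, lower without overlap (adjusted p = 0.0970 with edgeR and 0.0463 with DESeq2). S100a4 had between 1 and 21 counts in each tumour, and 302 of its 584 exonic bases overlap another gene on the same strand, whose part in these counts was not tested.
None of the 4 membrane repair genes passed the edgeR test. Myof, or myoferlin, was at 201 to 259 CPM and 296 to 462 CPM, and Dysf, or dysferlin, at 9.70 to 13.4 CPM and 14.8 to 16.4 CPM, both higher without overlap (edgeR adjusted p = 0.131 and 0.140). Trim72, a muscle repair gene, was at 1.54 to 3.19 CPM and 3.97 to 9.78 CPM (adjusted p = 0.112 with edgeR and 0.0258 with DESeq2). Ahnak, a giant scaffold that binds the annexin A2 heterotetramer, was at 7209 to 8603 CPM and 4792 to 8211 CPM (edgeR adjusted p = 0.762), the lowest value again in SOX2 1. Rasa1, a RAS GTPase-activating protein that binds annexin A6, was at 51.6 to 62.9 CPM and 50.0 to 72.2 CPM.

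Levels of different genes were compared only per length, as CPM per kb of exon. In Ivl:BRAFV600E tumours the level of Anxa1 was 308 ± 38.0 CPM per kb, that of Anxa8 298 ± 39.3 and that of Anxa2 111 ± 7.32 (SD, n = 3). The ranges of Anxa1 and Anxa8 overlapped, while Anxa2 stood apart from its neighbours in the order. Next came Anxa7 (46.0), Anxa5 (42.4) and Anxa9 (33.0), whose neighbours overlapped, then Anxa4 (11.1), then Anxa11 (4.94), Anxa3 (4.87) and Anxa6 (3.22), also with overlap of neighbours. In Ivl:BRAFV600E-SOX2LSL tumours the order began with Anxa1 at 508 ± 128 CPM per kb, apart from Anxa8 at 225 ± 108 and Anxa2 at 217 ± 23.3, which overlapped. Anxa5 (62.6) stood above Anxa7 (40.9), and Anxa6 (12.9), last in the other group, lay between Anxa9 (13.6) and Anxa4 (12.0), overlapping both. Anxa11 (8.33) and Anxa3 (7.62) came last.

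The summed level of the 10 annexins was 782, 928 and 879 CPM per kb in BRAF 1 to 3 and 904, 1370 and 1050 CPM per kb in SOX2 1 to 3. The groups overlapped, and the ratio of means was 1.28 (exact two-sided permutation p = 0.2). Within this sum Anxa1 made up 35.6 ± 1.65% and 45.7 ± 2.47%, Anxa8 34.5 ± 1.70% and 19.6 ± 6.95%, Anxa2 12.9 ± 0.898% and 19.9 ± 2.67%, and Anxa9 3.89 ± 1.27% and 1.25 ± 0.287% (SD, n = 3 each, Ivl:BRAFV600E first). Anxa1 and Anxa2 together with Anxa8 thus took most of the sum in every tumour. The ratio of Anxa8 to Anxa2 per kb was 2.35, 2.76 and 2.94 in BRAF 1 to 3 and 0.506, 1.29 and 1.27 in SOX2 1 to 3, without overlap (exact two-sided permutation p = 0.1, the smallest possible). That of Anxa1 to Anxa2 overlapped, with means of 2.77 and 2.32. Shares and ratios within a tumour do not depend on library scaling, and a share can move because another member does.

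**Figure D4:**
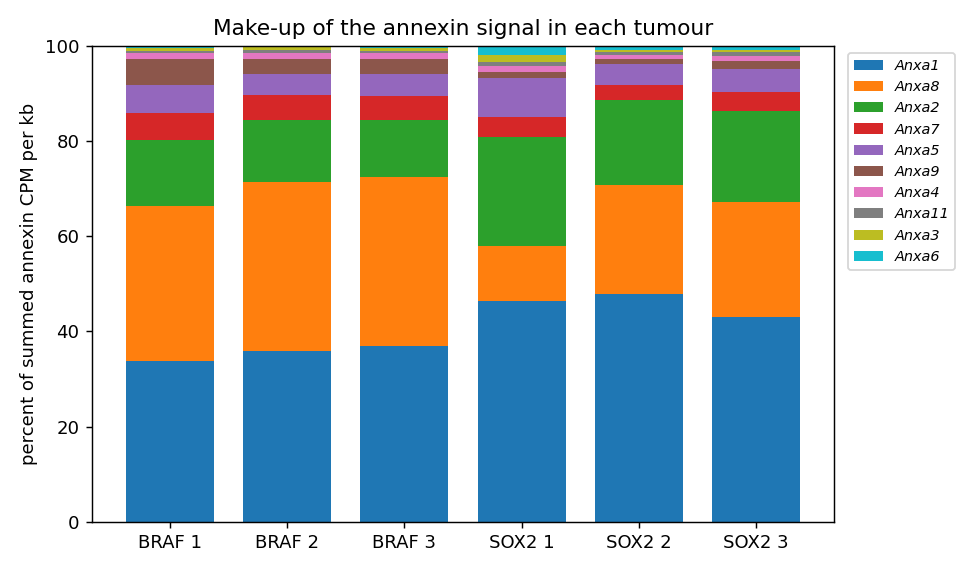
Share of each annexin in the summed annexin CPM per kb, 1 bar per tumour, in percent. Anxa1 made up 33.8% to 37.0% in the Ivl:BRAFV600E tumours and 43.0% to 47.8% in the Ivl:BRAFV600E-SOX2LSL tumours, and Anxa8 was smallest in SOX2 1 (11.6%).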

How the data were processed

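The authors trimmed reads with Trim Galore, aligned them to GRCm38 with HISAT2 2.1.0 and counted them per gene with featureCounts (Subread 1.6.3), and deposited raw counts without normalisation. Whether strand or multimapping reads were used is not given in the sources used here.

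The table names its columns by mouse, so tumours come from separate mice. The study's list of mice assigned 6 columns to groups and sexes (2 females and 1 male against 1 female and 2 males), and 1 further column was not used, since that list does not hold its mouse. Its name begins like those of the SOX2LSL columns, while the labels give 4 Ivl:BRAFV600E samples and 3 columns were assigned to that group, so its group is uncertain and an Ivl:BRAFV600E tumour may be missing here. The test was planned for and run on the 3 against 3 tumours that could be assigned. Tumour numbers are names only.

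The 24433 genes that reached 5 reads in 1 tumour or more were scaled by TMM and tested with edgeR 4.0.16 in R 4.3.3 (quasi-likelihood test, Benjamini-Hochberg adjustment at 0.05). Standard errors are the log2 fold change divided by the square root of F. CPM was divided by the union exon length of GENCODE M21 for comparisons between genes. Such lengths include rare exons, which lowers long models. A level of 3 counts (0.0839 to 0.143 CPM) was taken as the detection floor. The script was checked on simulated counts, and replicate tumours differed by far more than counting noise (chi-square per degree of freedom of 44.2 or more). Alternatives were DESeq2 1.42.0, other scalings and filters, sex as covariate, and each tumour left out in turn.

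The members and the lists of partners and markers were chosen with earlier results of these data known. Members that were called, the 2 largest fold changes and Anxa1 were described in full. The ratios between members and the AP-1 and TATA letters were added after the levels were seen. The planned search of protein sequences was not run, since no protein table was used here.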

Additional observations from a re-analysis of the deposited data

How the results depend on the processing

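The direction of each of the 10 annexins was the same under all 13 alternatives, though the fold of Anxa3 was below 1 among females and above 1 among males. The number of called members was 3 with other scalings and 4 with no filter (1759 of 33568 genes called) or filterByExpr (1296 of 17587 genes called). It was 6 with DESeq2, run without sex as covariate (3653 of 20046 genes called), and 0 with sex as covariate in edgeR (228 of 24433 genes called). In that edgeR fit 6 members had an unadjusted p below 0.05, beside 4543 of all 24433 genes tested. Leaving out 1 tumour gave between 0 and 3 called members and between 0 and 4 called partner genes, against 3 and 4 with 6 tumours. Called genes in all numbered between 22 (without BRAF 1) and 1575 (without SOX2 1), against 954 (of 24433) with 6 tumours. Every fit on 5 tumours has fewer degrees of freedom. All 3 called members were called without SOX2 1. DESeq2 called 10 partner genes and no filter gave 7. The cause of these differences was not tested. Leave-one-out fits turned the direction of 3 uncalled partner genes, with log2 fold changes from -0.160 to 0.0298 for Pdcd6, from -0.287 to 0.0558 for Ahnak and from -0.0429 to 0.293 for Pla2g4a. The ratio of the family sums lay between 1.13 and 1.40 over its alternatives, with an exact p between 0.1 and 0.4.

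No paired analysis was possible because the columns carry no replicate number. With 3 tumours per group, the smallest exact p for a single value is 0.1, and at this depth a difference among levels near the floor of 3 counts is not detectable.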

Other observations

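The 2 annexins outside the 10 described above were barely detected. Anxa10, known from gastric epithelium, had 22 counts in SOX2 1 (0.616 CPM) and 0 in the other 5 tumours. Anxa13, known from intestinal epithelium, had 2 counts in SOX2 1, 1 in SOX2 2 and 0 elsewhere, and was not tested. SOX2 1 was also the tumour with adipocyte markers and the highest Anxa3, Anxa5, Anxa6, Plat and Plaur.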
